A study of Drosophila melanogaster with 50 samples.

Results

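This experiment compared adult female *Drosophila melanogaster* flies kept at 2 times Earth gravity (2g) in the Large Diameter Centrifuge (LDC) with females of the same age kept at normal gravity (1g). The arrays were chosen by their sample titles and their age of 5 days: 8 of the 50 arrays of the series, each hybridised with RNA of a sample labelled as a separate biological replicate. All flies were Oregon R, a wild-type laboratory strain, for which the labels name no transgene or mutation. At 2g there were 4 arrays. The 1g side held 2 arrays of the centrifuge's rotational control (1g-rot) and 2 arrays of flies left outside the centrifuge (outside 1g). Young flies entered the facilities at 2 days of age and stayed for 3 to 5 days, and the centrifuge samples are all labelled 22 °C, although the growth protocol of the series names 14 or 24 °C. The same 3 groups, with the same numbers of arrays, were also made at an age of 20 days, from mature flies that entered at 2 weeks of age. Those 8 arrays give a difference from other samples. They do not enter the 5 day means, but the fit took the spread between replicates from all 16 arrays, so they bear on the 5 day p-values. The labels do not say how many flies made a sample, and RNA came from whole adults, so fewer cells of a type and less RNA per cell cannot be told apart in any result below.

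A centrifuge raises the weight that an animal's body and its sense organs must bear. Adult flies feel gravity mainly through Johnston's organ, a stretch-sensitive organ of the antenna, and respond by climbing. Among the gene families followed here, chaperones fold proteins and prevent their aggregation, heat shock genes are chaperones whose transcription rises when proteins unfold, metallothioneins bind metal ions, and the circadian clock is a loop in which the proteins of *per* and *tim* repress the activators encoded by *Clk* and *cyc*.

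Expression is given throughout as deposited log2 RMA values, where 1 unit is a doubling of the probe signal, and levels of different probe sets are not compared with each other. Array medians of the 8 arrays lay between 5.34 and 5.48, and pairs of these arrays correlated between 0.988 and 0.994. The flies carried the yolk transcripts of adult females: the yolk protein genes *Yp1*, *Yp2* and *Yp3* stood between 13.42 and 14.19 on every array. In contrast, the median of 26 genes of the male accessory gland was 3.77 to 4.11 and that of 28 testis genes 3.81 to 4.07, at or below the 95th percentile of the plant control probe sets, which was 4.07 to 4.37 and served as the background level. A measure of RNA quality, the difference between 3′ and 5′ probe sets of the *Gapdh* control, overlapped between 2g (1.45 to 1.77) and 1g (1.58 to 1.68). In the array names, the 4 arrays at 2g end in V, X, Y and Z and the 1g arrays in Q and R, at both ages. The labels do not say what these letters mean, and whatever they stand for cannot be told apart from the 2g treatment.

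Few genes differed between 2g and 1g at 5 days. Of 18769 probe sets, 23 passed an adjusted p of 0.05 (0.123%), 7 higher and 16 lower at 2g, when the 2g mean was set against the average of both 1g groups. The list was led by the co-chaperone gene *DnaJ-1*, which fell 1.75-fold, and also held the probe sets of the inducible Hsp70 genes, which fell 2.15- and 2.03-fold, and the clock gene *per*, which rose 1.53-fold. Among the called probe sets above background in each group, the differences ran from a fall of 2.59-fold to rises of up to 1.81-fold. Of the 23, 20 name a single gene, 7 higher and 13 lower. On 19 of the 23 the 4 arrays at 2g did not overlap with the 4 arrays at 1g. This was also true of 471 of all probe sets (2.51%). Over all probe sets, 966 had an unadjusted p under 0.05 (5.15%).

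**Figure D1:**
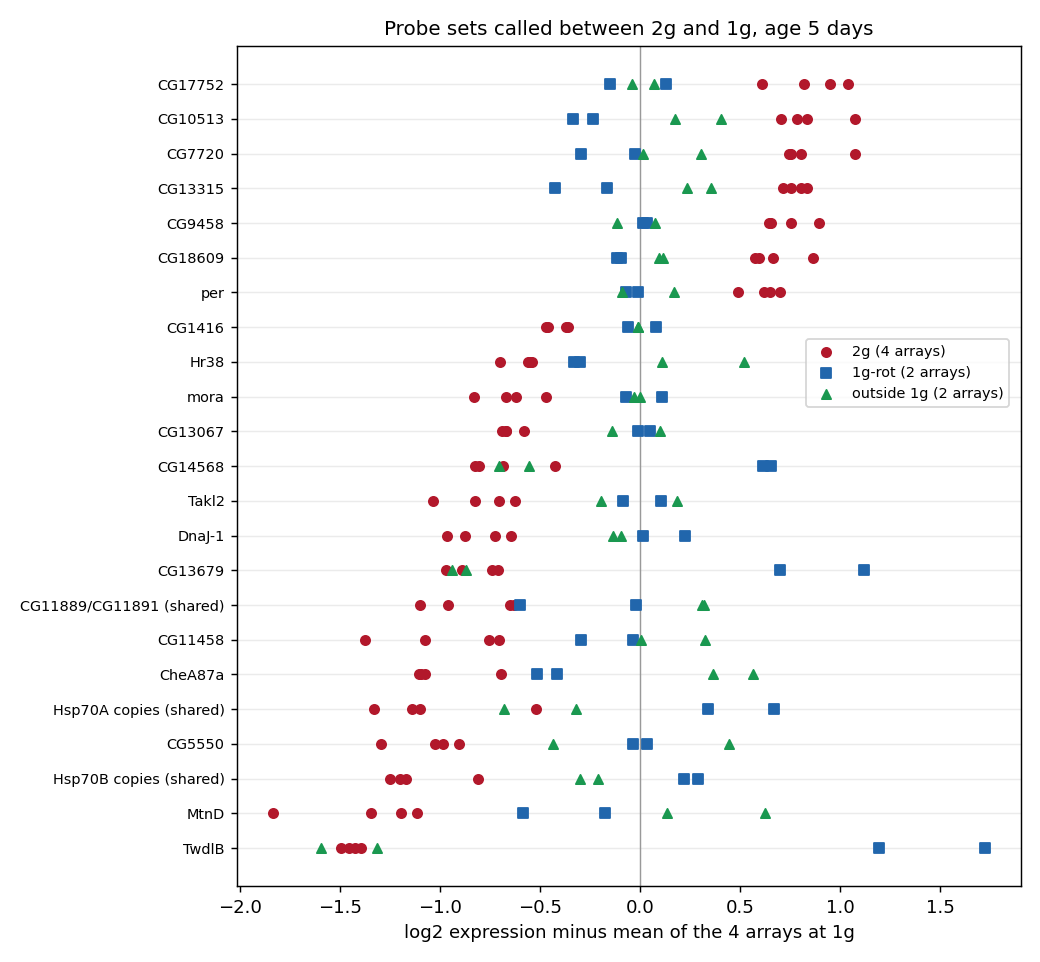
Log2 expression of the 23 called probe sets on each of the 8 arrays of 5 days, as the difference from the mean of the 4 arrays at 1g (x axis, log2 units); circles are 2g, squares 1g-rot and triangles outside 1g. The 7 genes at the top have every 2g array above every 1g array, while for TwdlB, CG13679 and CG14568 the outside arrays sit among the 2g arrays and only the 1g-rot arrays stand apart.

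The number of calls rested on single arrays. It was 10 without replicate 1 of outside 1g, 13 without replicate 1 at 2g and 15 without replicate 2 at 2g. With both 1g groups treated as a single group of 4 arrays, in a fit of the 8 arrays alone, 5 probe sets remained of the 23. The 7 rises, *DnaJ-1*, *MtnD* and *CheA87a*, 10 probe sets in all, were called whichever of the 8 arrays was left out.

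Of the 23 probe sets, 4 belong to chaperones or a co-chaperone: those of *DnaJ-1* and *CG1416* and a pair shared by Hsp70 copies. *DnaJ-1* encodes an Hsp40 protein, which delivers unfolded proteins to Hsp70. It read 10.17, 9.85, 9.94 and 10.09 on the 2g arrays, 11.04 and 10.83 in 1g-rot, and 10.68 and 10.72 outside. Every 2g array was therefore below every 1g array, with the outside arrays between the other groups. The difference was -0.81 ± 0.09 (SE; adjusted p = 0.0018, the smallest of all probe sets), and *DnaJ-1* was called lower against 1g-rot alone (-0.92, adjusted p = 0.00071) and against outside 1g alone (-0.69, adjusted p = 0.023).

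The Hsp70 genes of the fly are near-identical copies at neighbouring loci, hardly transcribed in unstressed cells, so their probe sets are shared and name no single copy. The probe set shared by *Hsp70Ba*, *Hsp70Bb*, *Hsp70Bbb* and *Hsp70Bc* read 4.82, 4.77, 5.21 and 4.85 at 2g, 6.31 and 6.24 in 1g-rot, and 5.81 and 5.72 outside. These values do not overlap, and the difference was -1.11 ± 0.17 (adjusted p = 0.012). The probe set of *Hsp70Aa* and *Hsp70Ab* read 6.89, 6.66, 6.85 and 7.47 at 2g, 8.66 and 8.33 in 1g-rot, and 7.67 and 7.31 outside. Here replicate 4 at 2g reached the outside arrays, and only 1g-rot stood clear of every other array. The difference was -1.02 ± 0.17 (adjusted p = 0.025). Against outside 1g alone neither was called (-0.85, adjusted p = 0.35, and -0.52, adjusted p = 1), whereas against 1g-rot alone both were (-1.36, adjusted p = 0.011, and -1.53, adjusted p = 0.0046). Both calls were lost in 6 of the 8 fits that left out an array, with an adjusted p of up to 0.097 for the Hsp70B probe set and up to 0.2 for the Hsp70A probe set. Each was kept without replicate 2 of outside 1g, the Hsp70B call also without replicate 3 at 2g and the Hsp70A call also without replicate 4 at 2g. A second probe set of *Hsp70Bb* and *Hsp70Bc*, whose mean was below background at 2g, read 3.85 to 4.27 there and 4.76 to 5.36 at 1g and did not pass the test (adjusted p = 0.18), a second one of all Hsp70B copies was at or below background in each group, and one that also covers the neighbouring gene *CG31343* differed by 0.18 in the other direction (adjusted p = 1).

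*CG1416* is related to Aha1, a protein known from yeast and human cells to activate Hsp90. It read 10.60, 10.51, 10.50 and 10.61 at 2g, 11.05 and 10.91 in 1g-rot, and 10.96 on each outside array. All 2g arrays were lower, by a small and even step of -0.41 ± 0.07 (adjusted p = 0.038). This call was lost whichever array was left out, with an adjusted p between 0.057 and 0.21, although no value changed sign.

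On the list of heat shock and chaperone genes with a probe set of their own, 14 of 15 genes read lower at 2g, beside 56.5% of all 11982 genes. Their median difference was -0.18, beside -0.02 over all genes, and 1 gene, *DnaJ-1*, passed the test (0.159% of all genes did). The shared Hsp70 probe sets are not in this count. An unadjusted p under 0.05 was reached by 6 of the 15, beside 5.93% of all genes. *Hsp68*, another inducible member of the Hsp70 family, read 5.59, 6.02, 6.70 and 6.19 at 2g and 6.79 to 7.33 at 1g (-0.89, adjusted p = 0.061). *Cdc37*, which brings kinases to Hsp90, differed by -0.40 (adjusted p = 0.31), and *Hsc70-3*, the Hsp70 of the endoplasmic reticulum, by -0.33 (adjusted p = 0.51). None of these overlapped between 2g and 1g. The constitutive *Hsc70-4* differed by -0.06, the small heat shock genes *Hsp26* and *Hsp27* by -0.18 and -0.10, and *Hsf*, the transcription factor of the heat shock response, by -0.01, with overlapping arrays in each case (adjusted p = 1 for each).

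Other co-chaperones outside that list were looked up after the values had been seen. *Stip1*, whose protein links Hsp70 to Hsp90, differed by -0.47 (adjusted p = 0.15), and *Hsp110*, a nucleotide exchange factor of Hsp70, by -0.45 (adjusted p = 0.063). Of the small heat shock gene *l(2)efl*, 2 probe sets differed by -0.60 (adjusted p = 0.061) and -0.45 (adjusted p = 0.18), and the third was below background. In *Stip1*, *Hsp110* and the detected *l(2)efl* probe sets the 2g arrays lay below the 1g arrays without overlap, but none passed the test.

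**Figure D2:**
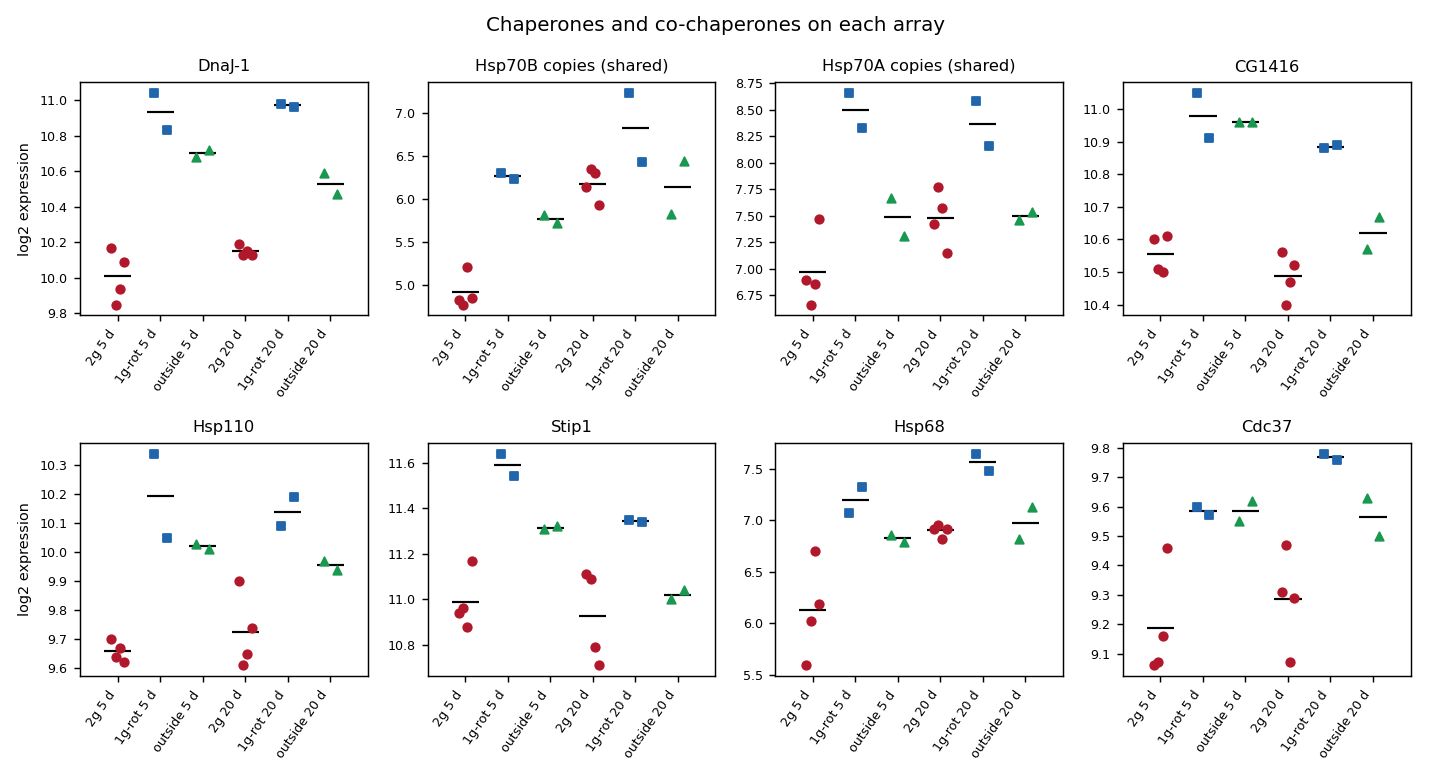
Log2 expression (y axis) of 8 chaperone or co-chaperone probe sets on each array by group at 5 and 20 days; points are arrays, bars the mean of a group of 4 arrays (2g) or 2 arrays (1g-rot and outside). DnaJ-1 at 2g lies below both 1g groups at both ages, and in most panels 1g-rot is the highest group.

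The 1g-rot arrays were the highest group for most of the chaperones plotted, but 1g-rot and outside 1g were not called different for any gene of the chaperone list, whose median difference between these groups was 0.12.

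Of the 7 genes that rose, *per* belongs to a list with other genes of known role. It read 6.66, 6.69, 6.74 and 6.53 at 2g, 6.03 and 5.97 in 1g-rot, and 6.21 and 5.95 outside. Both 1g groups lay below every 2g array, and the difference was 0.61 ± 0.08 (adjusted p = 0.0055). It was called against 1g-rot alone (0.66, adjusted p = 0.014) and was 0.57 against outside 1g alone (adjusted p = 0.061).

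Of 17 circadian clock genes measured, *per* alone passed the test (0.159% of all genes did), and 7 had an unadjusted p under 0.05 (5.93% of all genes). The median difference was 0.00, since the members lay on both sides of zero. On the higher side, *tim*, the partner of *per*, differed by 0.34 and *vri*, a repressor of *Clk* transcription, by 0.46. On the lower side, *Clk* differed by -0.44, *cry*, the blue-light receptor of the clock, by -0.29 and *jet*, needed for the light response of *tim* protein, by -0.28. The adjusted p of these 5 genes was 0.61 to 0.85. The arrays of *tim*, *Clk* and *jet* did not overlap between 2g and 1g, whereas those of *vri* and *cry* did. In flies, *per*, *tim* and *vri* transcripts peak together in the daily cycle while *Clk* and *cry* transcripts peak at another time. The labels give no hour of collection, and its part in these values was not tested.

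**Figure D3:**
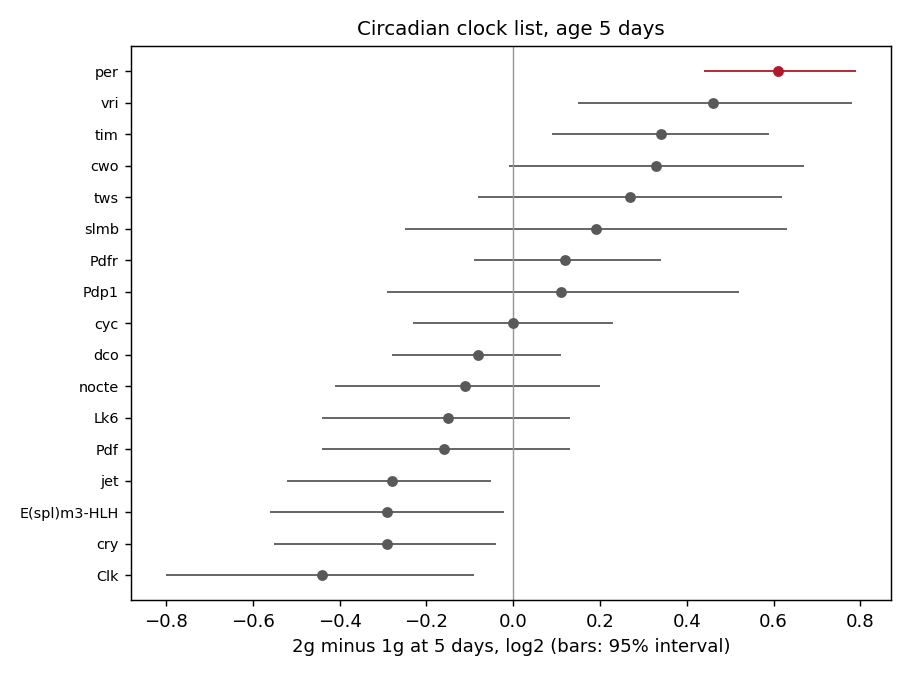
Difference between 2g and 1g at 5 days (x axis, log2 units) for the 17 measured genes of the circadian clock list, with 95% intervals from limma that are not adjusted for the number of genes. The top gene, per, passed the adjusted test; vri, tim and cwo follow on the higher side and Clk is the lowest.

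The other rises were in genes of less known function. *CG17752*, related to organic cation transporters, read 9.08, 9.21, 9.30 and 8.87 at 2g, 8.39 and 8.11 in 1g-rot, and 8.33 and 8.22 outside. It rose by 0.85 ± 0.11 (adjusted p = 0.0055) and by nearly the same against either 1g group (0.86, adjusted p = 0.015, and 0.84, adjusted p = 0.041). *CG9458* read 10.13, 10.12, 10.23 and 10.37 at 2g, 9.49 and 9.51 in 1g-rot, and 9.55 and 9.36 outside. This gene, too, was called against each 1g group (0.71, adjusted p = 0.015, and 0.76, adjusted p = 0.023), for a joint rise of 0.73 ± 0.09 (adjusted p = 0.0049).

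In the other 4 risers the outside arrays lay between 1g-rot and 2g. *CG13315* read 12.83, 12.95, 12.92 and 12.87 at 2g, 11.95 and 11.69 in 1g-rot, and 12.47 and 12.35 outside, a rise of 0.78 ± 0.09 (adjusted p = 0.0034). *CG10513*, which belongs to a family of ecdysteroid kinase-like proteins, read 10.43, 10.19, 10.06 and 10.14 at 2g, 9.12 and 9.02 in 1g-rot, and 9.76 and 9.53 outside (0.85 ± 0.12, adjusted p = 0.0055). *CG7720*, related to sodium-coupled solute transporters, read 9.31, 9.30, 9.63 and 9.36 at 2g, 8.26 and 8.53 in 1g-rot, and 8.57 and 8.86 outside (0.84 ± 0.11, adjusted p = 0.0049). The groups of these genes were clear of each other, and a second, much dimmer *CG7720* probe set was below background. *CG18609*, a serine protease gene, read 9.97, 9.95, 10.24 and 10.04 at 2g, 9.26 and 9.28 in 1g-rot, and 9.49 and 9.47 outside (0.68 ± 0.09, adjusted p = 0.0055). All 4 were called against 1g-rot alone, with differences of 0.78 to 1.14. None was called against outside 1g alone, where the differences were 0.48 to 0.69 and the adjusted p 0.081 to 0.46.

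*MtnD*, a metallothionein gene, had the largest fall among genes whose 2g and 1g arrays were separate. It read 6.46, 7.18, 6.95 and 7.10 at 2g, 7.71 and 8.12 in 1g-rot, and 8.43 and 8.92 outside, a fall of 2.59-fold (-1.37 ± 0.19, adjusted p = 0.0055). In contrast to the chaperones, the outside arrays were the highest group, and against outside 1g alone the difference was -1.75 (adjusted p = 0.0094), against 1g-rot alone -0.99 (adjusted p = 0.14). *MtnA*, *MtnB* and *MtnC* differed by -0.15, -0.69 and -0.51 without passing the test (adjusted p of 0.72 to 1). The arrays of *MtnC* did not overlap (7.25 to 8.01 at 2g, 8.07 to 8.36 at 1g), while *MtnB* ranged from 5.11 to 7.62 among the 2g arrays alone. *MTF-1*, the factor that drives metallothionein transcription in response to metals, differed by -0.01. Of the 12 genes on the list of metal-binding proteins, *MtnD* alone passed the test (0.159% of all genes did) and 9 read lower (56.5% of all genes).

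A second gene for which the outside arrays were highest was *CheA87a*, of the CheA family of secreted proteins, some of which are made in taste organs. It read 5.43, 5.41, 5.81 and 5.40 at 2g, 6.09 and 5.99 in 1g-rot, and 7.07 and 6.87 outside (-0.99 ± 0.13, adjusted p = 0.0055). The difference was -1.46 against outside 1g alone (adjusted p = 0.0037) and -0.53 against 1g-rot alone (adjusted p = 0.46), and the call was lost with both 1g groups as one (adjusted p = 0.35). Odorant binding proteins, another family of secreted proteins of sensory organs, had no called gene among 47 measured (0.159% of all genes were called). Of the 47, 31 read lower (56.5% of all genes) and 10 had an unadjusted p under 0.05 (5.93% of all genes). Against outside 1g alone 1 of them was called lower, beside 7 of all 11982 genes. In *Obp49a* the outside arrays again stood apart, at 8.25 and 8.26 against 6.86 to 7.27 at 2g and 7.08 on each 1g-rot array (-0.61, adjusted p = 0.29). The probe set shared by *CG11889* and *CG11891*, from the ecdysteroid kinase-like family, read 7.94, 8.39, 8.41 and 8.08 at 2g, 8.44 and 9.02 in 1g-rot, and 9.35 and 9.36 outside (-0.84 ± 0.14, adjusted p = 0.02). The lower 1g-rot array was thus only just above the highest 2g array, and the call was kept in only 3 of the 8 fits with an array left out (without replicates 2 or 3 at 2g, or replicate 1 of 1g-rot), the adjusted p reaching 0.13.

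In 5 further genes that fell, both 1g groups lay at about the same level. *CG13067* read 8.51, 8.60, 8.49 and 8.51 at 2g, 9.17 and 9.23 in 1g-rot, and 9.28 and 9.04 outside (-0.65 ± 0.09, adjusted p = 0.0055). *mora* read 7.48, 7.53, 7.32 and 7.68 at 2g, 8.26 and 8.08 in 1g-rot, and 8.12 and 8.15 outside (-0.65 ± 0.10, adjusted p = 0.0081). Both were tight within groups. Among the fits with an array left out, each was lost without replicate 1 of outside 1g (adjusted p = 0.056 in each case), and each was also lost against outside 1g alone (adjusted p = 0.061 and 0.077). *mora* was lost with both 1g groups as one as well (adjusted p = 0.052). *Takl2*, related to the kinase Tak1, read 4.96, 5.08, 5.16 and 4.75 at 2g, 5.89 and 5.70 in 1g-rot, and 5.97 and 5.59 outside (-0.80 ± 0.12, adjusted p = 0.011), and its adjusted p rose to at most 0.1 without replicate 1 of any of the 3 groups. *CG5550*, which encodes a fibrinogen-related protein, read 6.91, 6.95, 7.03 and 6.64 at 2g, 7.97 and 7.90 in 1g-rot, and 8.38 and 7.50 outside (-1.05 ± 0.18, adjusted p = 0.025). *CG11458* read 6.37, 7.04, 6.99 and 6.67 at 2g, 7.45 and 7.71 in 1g-rot, and 8.07 and 7.75 outside (-0.98 ± 0.17, adjusted p = 0.037). The arrays of each gene were separate, but both last calls hung on nearly every array: *CG5550* was kept only without replicate 2 of outside 1g and *CG11458* only without replicate 2 at 2g, with an adjusted p of up to 0.13 and 0.28. The remaining single gene, *Hr38*, a nuclear receptor of the NR4A type, was called on a probe set that was below background at 2g and in 1g-rot (3.40 to 3.80) and at 4.62 and 4.21 outside, so no fold is given. This call was kept in only 1 of the 8 fits with an array left out, that without replicate 2 of outside 1g, and was lost against 1g-rot alone (adjusted p = 0.63). A brighter *Hr38* probe set had means of 4.79 at 2g and 4.88 at 1g (adjusted p = 1).

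For 3 of the called genes the fall at 2g was a difference from 1g-rot only. *TwdlB* encodes a Tweedle protein, a class of structural proteins of the cuticle. It read 3.56, 3.59, 3.62 and 3.52 at 2g, 6.74 and 6.21 in 1g-rot, and 3.70 and 3.42 outside, so that it was below background at 2g and outside alike. It was at least 2.29 log2 units lower at 2g than in 1g-rot (adjusted p = 0.00036), no difference is given against outside 1g, and the adjusted p of the joint comparison was 0.019. *CG13679* (4.40 to 4.66 at 2g, 6.49 and 6.07 in 1g-rot, 4.43 and 4.50 outside) and *CG14568* (4.51 to 4.91, 5.99 and 5.95, 4.78 and 4.63) had the same form, with joint differences of -0.83 ± 0.15 (adjusted p = 0.037) and -0.69 ± 0.11 (adjusted p = 0.015). The 2 other probe sets of *CG13679*, which were at or below background at 2g and outside, did not show this form: their 1g-rot arrays read 4.36 and 4.17, and 3.89 and 4.16, within or close to the range of the other arrays (adjusted p = 1 for both). These genes fall outside the rule for naming, since their 2g and 1g arrays overlap, and were singled out after their values were seen. Each call was kept in only 1 or 2 of the 8 fits with an array left out, the adjusted p reaching 0.13 to 0.17. Those fits were the ones without replicate 2 of 1g-rot or of outside 1g for *TwdlB*, without replicate 2 of 1g-rot for *CG13679*, and without replicate 3 at 2g or replicate 2 of outside 1g for *CG14568*.

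Set directly against each other, 1g-rot and outside 1g differed in 8 of 18769 probe sets (0.0426%), all higher in 1g-rot, and these 3 genes were among them. The others were the probe set of *Cpr65Ax1* and *Cpr65Ax2*, cuticle protein genes, together with *CG17290*, *CG32266*, *CG14565* and *CG42819*. On the 2 arrays of 1g-rot *Cpr65Ax1/Cpr65Ax2* read 7.89 and 8.06, and 4.58 and 4.72 outside (3.33 ± 0.54, adjusted p = 0.042). At 2g it read 4.49 to 4.97, level with the outside arrays. *TwdlB* and *CG17290* were below background outside, so that the differences are given as bounds: at least 2.33 log2 units higher in 1g-rot than outside for *TwdlB* (adjusted p = 0.0023) and at least 1.73 for *CG17290* (adjusted p = 0.005). The count was 0 without replicate 1 of outside 1g, 1 without replicate 2 of it, 2 without replicate 2 of 1g-rot and 5 without any one of the 4 arrays at 2g.

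**Figure D4:**
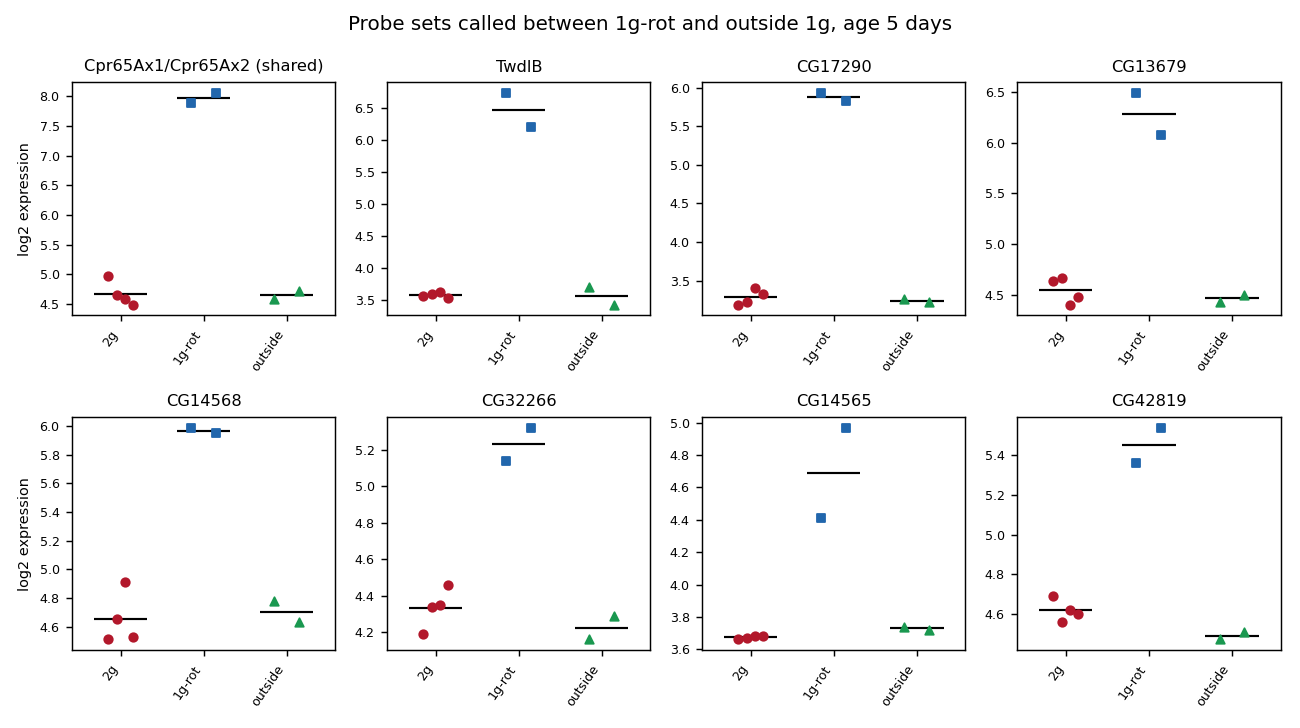
Log2 expression (y axis) at 5 days of the 8 probe sets called between 1g-rot and outside 1g; points are arrays and bars group means. In each panel both 1g-rot arrays lie above the 4 arrays at 2g and the 2 arrays outside, which share a level.

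Other cuticle genes had a like pattern with no call. In 19 of the 112 cuticle genes both 1g-rot arrays were above all other 6 arrays, and in 8 of them by more than 1 log2 unit on average. Over all 11982 genes the counts were 625 and 21. *TwdlN* read 8.19 and 7.98 in 1g-rot against 4.45 to 4.83 at 2g and 4.50 and 4.96 outside (1g-rot minus outside 3.35, adjusted p = 0.39), and *TwdlM* 6.61 and 6.86 against 4.62 to 4.85 and 4.84 and 5.05 (1.79, adjusted p = 0.56). The spread of these genes was large among the 20 day arrays, where *TwdlN* reached 8.25 on replicate 4 at 2g and was 4.35 to 4.87 on the other 2g arrays. *TwdlM* was called lower at 2g at that age, with 4.69 to 5.28 at 2g and 5.29 to 7.34 at 1g (-1.44, adjusted p = 0.038). It was the 1 cuticle gene called lower there, when 1.37% of all genes were. Across the whole list at 5 days, 82 of 112 cuticle genes read lower at 2g than at 1g (56.5% of all genes did) and the median difference was -0.08.

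Which probe sets passed the test differed with the control used. Against 1g-rot alone, 31 probe sets were called (0.165%; 9 higher and 22 lower), and against outside 1g alone 11 (0.0586%; 2 higher and 9 lower). Both comparisons share the 2g arrays. The first count was 7 without replicate 2 of 1g-rot. The second was 0 without replicate 1 and 3 without replicate 2 of outside 1g, and 7, 4 and 4 without replicates 1, 2 and 3 at 2g. Of the 23 probe sets called against the average of both controls, 16 were called against 1g-rot, 7 against outside 1g, and 3 against each of them: *DnaJ-1*, *CG9458* and *CG17752*. In 21 of the 23 the difference had the same direction against each control. A call against a single control therefore does not show that the controls differed.

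Genes of gravity and touch sensing had no call. Of 22 measured genes of hearing, gravity sensing and touch, 0 passed the test in limma and 1 had an unadjusted p under 0.05, *ppk*, which was below background in all groups. A list of this size would hold no call at the share of all genes (0.159%), so the count alone says nothing about these genes. Their differences ran from -0.19 to 0.20 with a median of 0.03. For *nompC*, the mechanotransduction channel of Johnston's organ, the difference was 0.05 with a 95% interval of -0.19 to 0.29. *nan* and *iav*, whose proteins together form a channel of the same sense cells, differed by 0.10 (-0.18 to 0.39) and 0.07 (-0.13 to 0.26). The whole fly holds few such cells, and several of these genes read close to background: *iav* was 4.24 to 4.50.

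Lists of muscle, metabolism and reproduction had no called gene, which is also what the share over all genes (0.159%) gives for lists of 3 to 75 genes. The median of 25 sarcomere genes differed by 0.04, that of 75 genes of oxidative phosphorylation by -0.03 and that of 41 ribosomal protein genes by 0.00. For the first 2 lists the direction depended on the control. The sarcomere median was 0.18 against 1g-rot and -0.11 against outside 1g, and that of oxidative phosphorylation 0.05 and -0.11. The yolk protein genes differed by -0.03 to -0.01. The 95% interval was -0.26 to 0.24 for *Yp1* and -0.43 to 0.37 for *Yp2*, the most variable of the 3. Chorion genes, made in the last hours of egg formation, varied widely among arrays of a group: *Cp36* read 8.56 on replicate 3 at 2g and 11.37 to 11.56 on the other 2g arrays. Their median difference of -0.57 over 7 genes therefore came with standard errors of 0.97 to 1.41, and 0 of the 7 passed the test or had an unadjusted p under 0.05.

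Antimicrobial peptide and glutathione transferase genes each leaned to one side without passing the test. Of 23 antimicrobial peptide genes, 20 read higher at 2g, beside 43.4% of all genes, with a median of 0.20. *Drs*, the antifungal peptide drosomycin, read 12.79 to 13.38 at 2g and 12.50 to 12.90 at 1g (0.27, adjusted p = 0.99). The direction depended on the control: the list's median was 0.40 against 1g-rot and -0.19 against outside 1g. Of 34 glutathione transferase genes, 24 read lower (56.5% of all genes did) and 0 were called (0.159% of all genes were). *GstE1* read 9.46 to 9.59 at 2g and 9.91 to 10.03 at 1g, without overlap (-0.45, adjusted p = 0.25), and *GstE7* likewise differed by -0.45 (adjusted p = 0.24). Other detoxification families did not share this direction. Of 80 cytochrome P450 genes 46 read higher, and of 35 UDP-glycosyltransferase genes 22 did, beside 43.4% of all genes. In both lists 0 genes were called. The receptor of the adipokinetic hormone, *AkhR*, which mobilises fat and sugar stores, read 8.49 to 9.01 at 2g and 7.67 to 8.36 at 1g (0.74, adjusted p = 0.15).

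The 20 day differences come from other samples, which shared in the spread behind the 5 day tests but not in the 5 day differences. With the 5 day arrays alone 32 probe sets were called, 20 of them among the 23, and *Hr38*, *CG1416* and the *CG11889*/*CG11891* probe set were not. Of the 23 probe sets, 20 differed in the same direction at 20 days, beside 49% of all probe sets, and 5 passed the test in that direction there. At that age 643 of 18769 probe sets were called (3.43%; 422 higher and 221 lower), a count of 231 without replicate 1 of outside 1g at 20 days and of 396 and 377 without replicates 1 and 3 at 2g. *DnaJ-1* fell again, from 10.98, 10.96, 10.59 and 10.47 at 1g to 10.13 to 10.19 at 2g (-0.60 ± 0.09, adjusted p = 0.0012), with no overlap. The clock gene *per* rose again, with 6.88 to 6.98 at 2g and 6.45 to 6.67 at 1g (0.37 ± 0.08, adjusted p = 0.026). The other 3 that rose at both ages were *CG18609* (0.51, adjusted p = 0.0073), *CG10513* (0.53, adjusted p = 0.025) and *CG9458* (0.39, adjusted p = 0.033). In each of these 5 the test of the difference between the ages was not passed (adjusted p of 0.31 to 0.7). *CG17752*, called against each 1g group at 5 days, differed by 0.11 at 20 days, with overlapping arrays (adjusted p = 0.69). Its difference between the ages was 0.74 (adjusted p = 0.051). The array letters split with the treatment at this age too, and another RNA quality measure, the 3′ to 5′ difference of *eIF-4a*, did not overlap between 2g and 1g at 20 days (0.99 to 1.26 and 0.62 to 0.81). Its part in the 20 day values was not tested.

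The other chaperones did not all read lower at 20 days. *Roe1*, the fly GrpE factor of the mitochondrial Hsp70, rose there, from 8.09 to 8.38 at 1g to 9.24 to 9.41 at 2g (adjusted p = 7.8e-05), with a difference of -0.28 at 5 days (adjusted p = 0.76) and a called interaction (-1.38, adjusted p = 0.0012). The probe set covering *CG31343*, *Hsp70Bb* and *Hsp70Bc* also rose at 20 days (0.61, adjusted p = 0.0045), without overlap. It read 11.31 to 11.60 at 2g and 10.73 to 10.97 at 1g. Because *CG31343* is not an Hsp70 gene and shares this probe set, the rise cannot be assigned to the Hsp70 copies. *CG1416* differed by -0.27 (adjusted p = 0.063), *Hsp110* by -0.32 (adjusted p = 0.054), *Cdc37* by -0.38 (adjusted p = 0.056) and the Hsp70A and Hsp70B probe sets by -0.46 (adjusted p = 0.18) and -0.31 (adjusted p = 0.38). None of these probe sets listed as lower passed the test, and *MtnD* at -0.41 (adjusted p = 0.28) did not either. All 23 probe sets had a smaller difference at 20 than at 5 days, a comparison that the choice of the probe sets at 5 days favours.

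Some probe sets had a 2g difference that was called different between the ages. The interaction of 2g with age, which is the 5 day difference minus the 20 day difference, was called for 121 of 18769 probe sets (0.645%), 3 of them among the 23. That number lay between 43 and 131 when each of the 16 arrays was left out, and was lowest without replicate 2 of outside 1g at 5 days. *CG13067* fell by 0.65 at 5 days but rose at 20 days, when it read 7.50 to 7.67 at 2g and 6.92 to 7.39 at 1g (0.41 ± 0.09, adjusted p = 0.024), and its interaction was -1.06 ± 0.13 (adjusted p = 0.0025). *Takl2* read 6.06 to 6.39 at 2g and 5.69 to 5.99 at 1g at 20 days (0.38 ± 0.12, adjusted p = 0.11), an interaction of -1.18 ± 0.17 (adjusted p = 0.0053). For the probe set of *CG11889* and *CG11891* the 20 day difference was 0.15 (adjusted p = 0.63) and the interaction -0.99 ± 0.19 (adjusted p = 0.03). Phototransduction genes, the light-sensing machinery of the eye, had 0 of 20 called at 5 days (median 0.11) and 10 lower at 20 days (median -0.48), when 1.37% of all genes were called lower. The interaction was called for 7 of them, all positive, beside 0.217% of all genes.

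**Figure D5:**
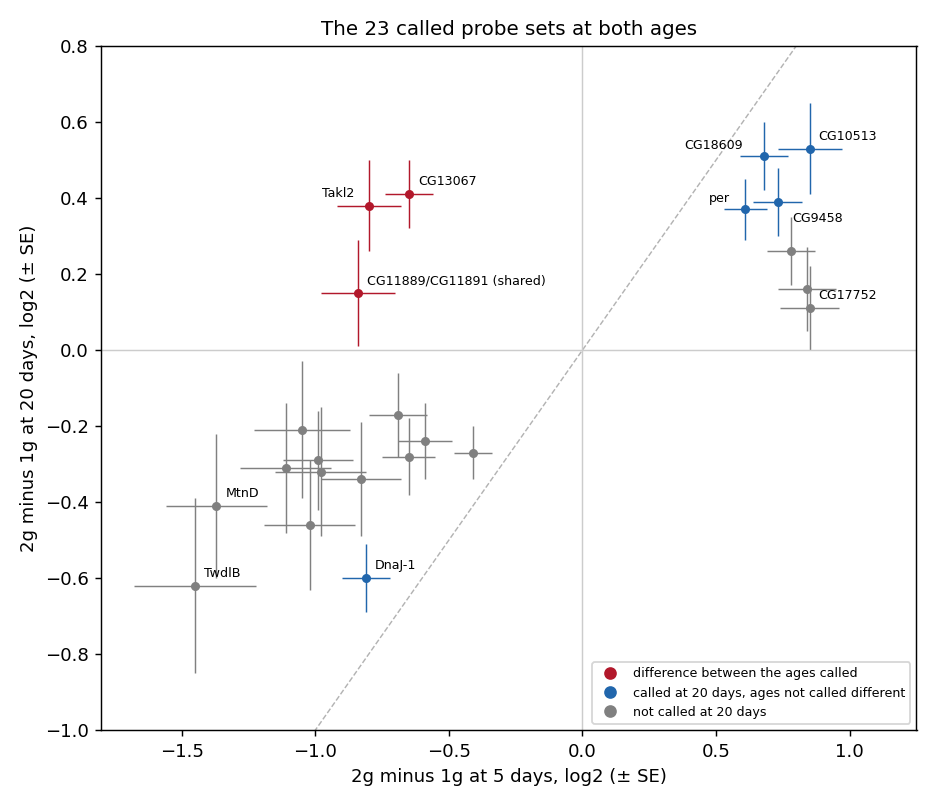
Difference between 2g and 1g at 5 days (x axis) and at 20 days (y axis) for the 23 called probe sets, in log2 units with standard errors; the dashed line marks equal differences. DnaJ-1 and the 4 labelled rising genes per, CG18609, CG9458 and CG10513 were called at both ages, while CG13067, Takl2 and the shared CG11889/CG11891 probe set (red) differed between the ages.

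Across the rest of the series, in other facilities and at other temperatures, the group means of *DnaJ-1* ran from 10.12 to 11.50. The 2g mean in the centrifuge, 10.01, was below all of them. For *per* the other group means spanned 6.21 to 7.39, which includes the centrifuge 2g mean of 6.66, while both 1g groups of 5 days in the centrifuge averaged lower than any of them. The high level of *TwdlB*, *CG13679* and *CG14568* was not seen in 1g-rot alone. Their highest mean outside the centrifuge was in the magnet females labelled 80h (0g*), at 6.39, 5.69 and 5.79, beside 6.47, 6.28 and 5.97 in 1g-rot. The groups outside the centrifuge were made in other experiments, and no test was run across them.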

How the data were processed

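The deposited table held 50 arrays of the Affymetrix Drosophila Genome 2.0 type as log2 values, made by the authors with RMA (background correction, quantile normalization and probe summary) per the labels; RMA and limma are named in the submitters' processing notes without versions, and scanner files were not analysed here. Total RNA had been extracted with Trizol and 4 µg labelled with biotin. Array files give no read depth; precision is limited by the number of arrays, and p-values measure the spread between samples that the labels call biological replicates.

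Of 18952 probe sets, 183 controls were left out and 18769 tested. Platform annotation gave 1 symbol for 13647 probe sets, several for 402 and none for 4720; 13544 of the first were matched by gene ID to RefSeq, with no symbol changed. Probe sets with several symbols name no single gene. Lists used the probe set with the highest mean over the centrifuge arrays for each of 11982 genes.

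The 6 centrifuge groups (16 arrays) were fitted as group means in limma 3.58.1 (R 4.3.3) with lmFit and eBayes, checked on simulated data. The main contrast was the 2g mean minus the average of the 1g-rot and outside means at 5 days; the other contrasts were those against each control, between the controls, at 20 days, and the interaction with age. P-values are two-sided with Benjamini-Hochberg adjustment over all tested probe sets, and "called" means an adjusted p below 0.05. The ± values are standard errors from this fit. As a background level, the value below which 95% of the 50 probe sets for plant transcripts fell was taken for each array.

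Named genes were the called single-symbol probe sets whose 4 arrays at 2g and 4 at 1g did not overlap, up to 15 in each direction, the yolk protein genes, and up to 4 members of a list by smallest p; genes named beyond this rule were chosen after their values were seen, either as marked beside them or, for *cry*, *jet*, *MTF-1*, *nompC*, *nan*, *iav*, *Hsc70-4*, *Hsp26*, *Hsp27*, *Hsf*, *Roe1* and *TwdlN*, for their role or pattern. The members and lists were chosen with earlier results of these data known. The paper given with the series describes pupae, and its methods were not taken as those of these samples.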

Additional observations from a re-analysis of the deposited data

Results flagged for a closer look

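The test of the difference between ages picked out *CG13067*, *Takl2* and the probe set shared by *CG11889* and *CG11891*, whose 5 day minus 20 day differences were -1.06, -1.18 and -0.99, and 121 probe sets in all. The 4 arrays at 2g of each of the 23 called probe sets were also examined at both ages. In 3 of these groups a single array stood apart by more than Dixon's 95% critical value. Chance alone passes that value in about 1 of 20 groups, so 3 is near the number that chance gives. In *CheA87a* at 5 days replicate 3 read 5.81 and the others 5.40 to 5.43 (gap over range 0.927). In the *Hr38* probe set below background at 5 days replicate 2 was lowest at 3.40 (0.875). In *CG14568* at 20 days replicate 2 was highest at 4.80 (0.875), but all 4 arrays lay between 4.72 and 4.80.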

How the results depend on the processing

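The count of 23 probe sets called between 2g and 1g at 5 days stayed within 1.5 times under repeated quantile normalization (29), centring on array medians (26), the background filter (23), the 5 day arrays alone as 3 groups (32), 1g-rot as the only control (31) and a variance trend with robust estimation (32). It was 5 with the 5 day arrays alone and both 1g groups as one, 11 with outside 1g as the only control, and 13 with the replicate block. Leaving out an array gave 10 to 21, and 7 to 32 against 1g-rot, 0 to 13 against outside 1g, 0 to 10 between the 1g groups, 231 to 591 at 20 days and 43 to 131 for the interaction. With the 5 day arrays alone, outside 1g gave 3 calls and the comparison of the 1g groups 24. With a variance trend and robust estimation, 1g-rot gave 50 and outside 1g 18. The replicate block left 414 calls at 20 days. Replicate numbers 1 and 2 are shared by the groups, and deviations of same-numbered arrays correlated from -0.16 to 0.16. In a 1g group of 2 arrays the deviations mirror each other, so these values cannot show whether same-numbered samples were paired. Of the 23, 3 were called in every fit (*DnaJ-1*, *CG9458* and *CG17752*). Against outside 1g alone the differences changed sign for *TwdlB* (0.013), *CG13679* (0.078), *CG17290* (0.050), *CG32266* (0.11), *CG42819* (0.13) and *Cpr65Ax1/Cpr65Ax2* (0.025), and that of a dim *Hsp22*/*CG4456* probe set, which was never called, ran from -0.027 to 0.190 with an array left out.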

Other observations

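*Kr-h1*, a target of juvenile hormone signalling, was among the list members with the smallest p outside the families described above, with a difference of 0.47 (adjusted p = 0.62). *ninaD*, a scavenger receptor needed for carotenoid uptake, differed by 0.58 (adjusted p = 0.31), and the digestive protease gene *Ser8* by -0.76 (adjusted p = 0.41). Another digestive protease gene, *Try29F*, read 5.62 and 5.63 in 1g-rot, 4.44 and 4.58 outside, and 4.01 to 4.27 at 2g, where its mean was below background, so that its 1g-rot arrays again stood above the other groups.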
